A study of Mus musculus with 12 samples.

Results

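The L1 family, Robo and Slit group of neural guidance genes was followed in C2C12 mouse myoblasts with and without overexpression of PPARγ. It holds 10 of the 46983 genes in the deposited table: *L1cam*, *Chl1*, *Nrcam*, *Nfasc*, *Ncam1*, *Robo1*, *Robo2*, *Slit2*, *Slit3* and *Tenm4*. The members were chosen by symbol, and the choice used measured values, because *L1cam* and *Robo1* had changed in opposite directions from 0d to 5d in the 2 cell types in an earlier analysis of these data. The change from 0d to 5d in either cell type, and the difference between these changes, are therefore given for all members as a description with no test.

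C2C12 is a line of mouse skeletal myoblasts that form myotubes when they differentiate. The data hold RNA sequencing of 4 groups with 3 libraries each. WT_0d and WT_5d were wild-type C2C12 cells of the PB-IP group, the PiggyBac vector of that name, collected on 0d and 5d of differentiation. PPARγ/+_0d and PPARγ/+_5d were C2C12 cells that carried this vector with the coding sequence of PPARγ, collected on the same days. The cells had been transfected together with transposase and selected with puromycin, so the added *Pparg* was integrated by the vector and not expressed from its own locus. How many clones the line came from is not given in the sources used here. The design text calls the PPARγ/+ cells inducible and their controls uninduced, whereas the methods name no inducer. All 4 groups share the cell line. The authors call the 3 libraries of a group biological replicates but do not state that they came from separate cultures, so p-values measure only the spread between these libraries, which may be technical.

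L1cam, Chl1, Nrcam and Nfasc are the L1 family of transmembrane adhesion molecules, which hold growing axons together and are anchored to the membrane skeleton by ankyrins. Secreted Slit proteins bind Robo receptors on growing axons and migrating cells and turn them away, and teneurins join cells by binding partners on the opposite membrane. In skeletal muscle Ncam1 is known as an adhesion molecule of myoblasts, of newly formed myotubes and of the neuromuscular junction.

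Levels are FPKM, the fragments of a gene scaled by a length of that gene and by the mapped fragments of its library, as the authors deposited them. For 21030 genes all exonic bases on GRCm38 fitted as this length. The depth, recovered from these values, was 15557797 to 22013221 fragments on genes in a library. Differences were fitted on log2(FPKM + 0.1), a scale that understates the change of genes with low FPKM, for the 18023 genes with at least 0.1 FPKM in at least 3 libraries. Of the 10 members 6 passed this filter, and *Chl1*, *Nrcam*, *Nfasc* and *Robo2* did not. *Tenm4* passed only through the 3 libraries of WT_0d, where its level was highest. The authors also list it, like *L1cam*, among genes with opposite changes in WT and PPARγ/+ cells. Its differences are therefore also given with no test. A gene was called from 0d to 5d where it changed 2-fold or more and its unadjusted p did not exceed 0.05. Between the cell types a call needed a 2-fold difference and an adjusted p not above 0.05, and the interaction of cell type and day needed only the latter.

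The added gene was read first. *Pparg* stood at 7.56, 5.10 and 6.92 FPKM in WT_0d (replicates 1, 2 and 3 in this and every such sentence), at 3.12, 3.53 and 4.59 FPKM in WT_5d, at 44.4, 28.0 and 46.4 FPKM in PPARγ/+_0d and at 40.1, 44.1 and 92.7 FPKM in PPARγ/+_5d. Every PPARγ/+ library lay above every WT library, as the labels say. Over both days the difference was 3.21 on the log2 scale (SE 0.22, adjusted p = 3.08e-05). PPARγ/+_5d replicate 3 stood apart from its group in this gene and was also the highest of the group in *L1cam*, *Robo1*, *Slit2* and *Slit3* and the lowest in *Ncam1* and *Tenm4*.

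A pair of WT libraries stood apart from the others of their group in muscle markers. *Myog*, the transcription factor myogenin that drives the entry into differentiation, was at 271, 215 and 90.0 FPKM in WT_5d, so that replicate 3 lay close to PPARγ/+_5d with 78.8, 85.9 and 90.3 FPKM. On 0d it was at 2.69, 15.7 and 1.47 FPKM in WT_0d, with replicate 2 above the others. The 5 myotube markers summed to 3637, 2724 and 804 FPKM in WT_5d and to 13.6, 92.2 and 8.88 FPKM in WT_0d. In PPARγ/+ cells their sum was 6.50, 12.6 and 21.1 FPKM on 0d and 813, 937 and 956 FPKM on 5d, and their most abundant gene over the 12 libraries was *Acta1*, the actin of skeletal muscle. Some of the values below are therefore also given without WT_5d replicate 3 or WT_0d replicate 2.

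The genes have neural names, so the markers of neurons were read beside them. Of 6 neuron markers, *Snap25* and *Elavl4* were listed at 0 in all 12 libraries and *Rbfox3* stayed below 0.1 FPKM in each of them. The sum of the 6 markers was 61.7, 69.8 and 42.7 FPKM in WT_0d, 12.8, 16.1 and 7.59 FPKM in WT_5d, 24.3, 28.5 and 34.3 FPKM in PPARγ/+_0d and 9.41, 9.91 and 11.1 FPKM in PPARγ/+_5d. By its mean over the 12 libraries the most abundant was *Tubb3*, a tubulin of neurons that stood at 50.4, 52.8 and 33.3 FPKM in WT_0d, while in PPARγ/+_0d *Stmn2*, a binder of tubulin, exceeded it. *Sox10*, a transcription factor of Schwann cells, was listed at 0 in every library. Whether such cells had a part in the members' differences was not tested.

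*L1cam* (ENSMUSG00000031391, chrX:73853778-73896105 on the minus strand of GRCm38) encodes the founding member of the L1 family, a protein with immunoglobulin and fibronectin domains that binds itself and integrins. Its level was 6.79, 5.61 and 4.97 FPKM in WT_0d and 3.03, 2.54 and 0.896 FPKM in WT_5d. In PPARγ/+ cells it was 2.11, 2.21 and 2.92 FPKM on 0d and 5.32, 4.81 and 7.49 FPKM on 5d. All WT libraries on 5d lay below all of those on 0d, and all PPARγ/+ libraries on 5d lay above all of those on 0d, so the pattern was crossed. The counts behind these values ran from 150 to 1040 fragments, and in bulk RNA fewer cells of a type and less RNA per cell cannot be told apart.

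As a description, the mean of *L1cam* went from 5.79 ± 0.922 FPKM (SD, n = 3) to 2.16 ± 1.12 FPKM in WT cells and from 2.42 ± 0.442 FPKM to 5.87 ± 1.43 FPKM in PPARγ/+ cells. On the log2 scale it fell by 1.53 in WT cells and rose by 1.24 in PPARγ/+ cells, and these changes lay 2.77 apart. Without WT_5d replicate 3, the lowest of the 12 libraries, the change in WT cells was −1.02, and with WT_0d replicate 2 left out as well it was −1.04. Without PPARγ/+_5d replicate 3, the highest library of its group, the rise in PPARγ/+ cells was 1.05. In order of level PPARγ/+_5d and WT_0d stood at the top and PPARγ/+_0d and WT_5d at the bottom, with overlapping libraries inside each of these pairs and none between them.

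The comparison that the choice of members did not use is that of PPARγ/+ with WT cells over both days. For *L1cam* this difference was 0.15 on the log2 scale (95% confidence interval −0.40 to 0.71, adjusted p = 0.740), which did not pass the test. It turned to −0.10 without WT_5d replicate 3. By day, as a description, *L1cam* was 1.23 lower on this scale in PPARγ/+ cells on 0d and 1.54 higher on 5d. Without WT_5d replicate 3 the latter was 1.03. Its exons share 100 bases with those of *Arhgap4* on the same strand, and fragments there could belong to either gene.

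*Ncam1* (ENSMUSG00000039542, chr9:49502136-49798925 on the minus strand) encodes the neural cell adhesion molecule, which binds itself between neighbouring cells and carries polysialic acid. It stood at 9.50, 14.9 and 10.97 FPKM in WT_0d, 55.3, 48.1 and 22.7 FPKM in WT_5d, 10.6, 10.8 and 12.2 FPKM in PPARγ/+_0d and 27.2, 27.0 and 25.5 FPKM in PPARγ/+_5d. On 5d all libraries of both cell types lay above all libraries on 0d. WT_5d replicate 3 was the lowest library on 5d, below the PPARγ/+ libraries, while replicates 1 and 2 of WT_5d lay above them. The PPARγ/+ libraries lay close together, at 26.6 ± 0.925 FPKM on 5d against 42.0 ± 17.1 FPKM in WT cells.

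On the log2 scale *Ncam1* rose from 0d to 5d by 1.75 in WT cells and by 1.24 in PPARγ/+ cells, as a description. Without WT_5d replicate 3 it was 2.14 in WT cells. Between the cell types the difference did not pass the test over both days (−0.31, 95% confidence interval −0.73 to 0.12, adjusted p = 0.348), on 0d (−0.05, adjusted p = 0.943) or on 5d (−0.56, adjusted p = 0.359). The result of the test rests on WT_5d replicate 3. Without this library the difference on 5d was −0.96 with an adjusted p of 0.00407, and over both days −0.50 with an adjusted p of 0.00773, both short of a fold change of 2. Over the 19 alternatives the adjusted p ranged from 0.000422 to 0.793 on 5d and from 0.00339 to 0.613 over both days. With any 1 library left out the difference lay between −0.96 and −0.31 on 5d and between −0.50 and −0.18 over both days. On 0d the difference turned to 0.13 when WT_0d replicate 2, the highest WT library on that day, was left out. *Ncam1* shares 417 exonic bases with *Gm11149* on the other strand, and the strand setting of the counting is not given in the sources used here.

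The other L1 family members were near 0. *Nrcam*, which with neurofascin gathers sodium channels on axons, ranged from 0.0270 to 0.178 FPKM, or 5 to 26 fragments per library, and its highest library was WT_5d replicate 2. *Chl1*, the close homolog of L1, reached at most 0.0410 FPKM in PPARγ/+_0d replicate 3 with 11 fragments and was at 0 in 6 libraries. *Nfasc*, the neurofascin of the axon initial segment and the nodes of Ranvier, had 1 fragment in WT_0d replicate 1 and none in the other 11 libraries. For *Nfasc* 3 fragments, the level that a count of 0 allows, are worth between 0.00813 and 0.0114 FPKM, a limit of counting error alone. Any difference below these levels was not detectable at this depth. *L1cam* was thus the L1 family member with a level above 0.2 FPKM in these cells, and it was so in each library.

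**Figure D1:**
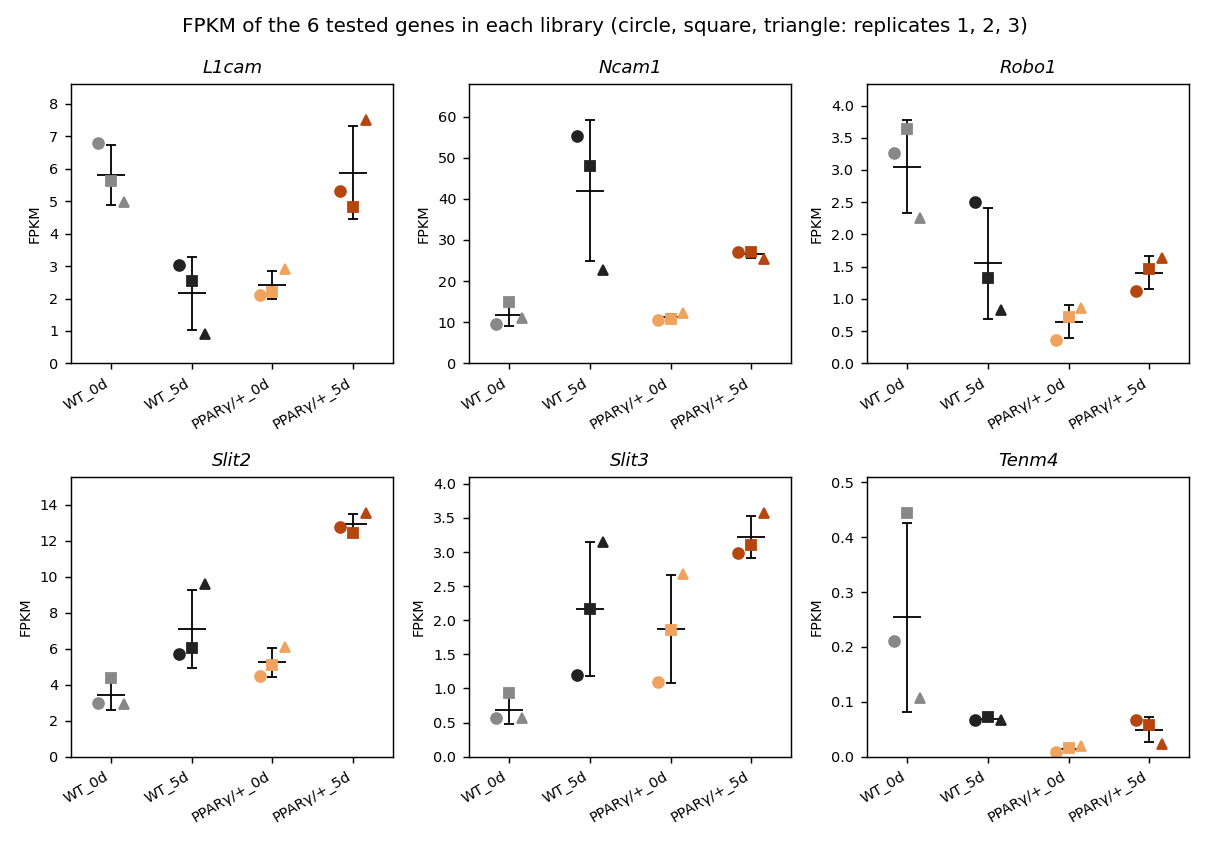
FPKM (y axis, from 0) of the 6 tested genes in each library of the 4 groups (x axis); circles, squares and triangles are replicates 1, 2 and 3, and the black lines are the group mean ± SD (n = 3). *L1cam* runs from 4.97 FPKM or more in WT_0d to 3.03 FPKM or less in WT_5d and the other way in PPARγ/+ cells, while *Ncam1*, *Slit2* and *Slit3* are higher on 5d in both cell types.

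*Robo1* (ENSMUSG00000022883, chr16:72308306-73046095 on the plus strand) encodes the receptor that Slit proteins bind. It stood at 3.26, 3.64 and 2.25 FPKM in WT_0d and at 2.50, 1.33 and 0.824 FPKM in WT_5d, where the days overlapped, since WT_5d replicate 1 lay above WT_0d replicate 3. In PPARγ/+ cells it stood at 0.363, 0.720 and 0.854 FPKM on 0d and at 1.13, 1.46 and 1.64 FPKM on 5d, with no overlap. All WT_0d libraries were above all libraries of PPARγ/+ cells, and on 5d the cell types overlapped. The counts behind these values ran from 67 to 695 fragments. The length behind the deposited values of *Robo1* was 7563 bases, against 16511 exonic bases in the annotation used here, so its level relative to other genes depends on the transcripts taken.

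As a description, *Robo1* changed by −1.04 on the log2 scale from 0d to 5d in WT cells and by 1.07 in PPARγ/+ cells, 2.10 apart. The change in WT cells was −0.68 without WT_5d replicate 3, −0.90 without WT_0d replicate 2 and −0.55 without both. In PPARγ/+ cells it was 0.96 without PPARγ/+_5d replicate 3. By day PPARγ/+ cells stood at −2.12 against WT cells on 0d and at −0.01 on 5d, where the sign turned without WT_5d replicate 1 (0.38) or PPARγ/+_5d replicate 1 (0.13).

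Over both days, the comparison not used in the choice, *Robo1* was lower in PPARγ/+ than in WT cells by −1.07 on the log2 scale (95% confidence interval −1.64 to −0.49, SE 0.26, adjusted p = 0.0330), just past a fold change of 2. By day the values were −2.12 on 0d and −0.01 on 5d, a description with no test, since *Robo1* was chosen for its changes. The call was kept without WT_0d replicate 3 (−1.16, adjusted p = 0.0404), WT_5d replicate 3 (−1.24, adjusted p = 0.00516) or PPARγ/+_0d replicate 3 (−1.17, adjusted p = 0.0453). It was lost without any of the other 9 libraries, where the difference lay between −1.12 and −0.87. These were WT_0d replicate 1 (adjusted p = 0.0625) and 2 (0.0735), WT_5d replicate 1 (0.0542) and 2 (0.0680), PPARγ/+_0d replicate 1 (0.0571) and 2 (0.0598), and PPARγ/+_5d replicates 1 (0.0819), 2 (0.0678) and 3 (0.0587). Without both WT libraries that stood apart it was −1.17 (adjusted p = 0.0121). The call was also lost with a pseudocount of 1, with no filter and with the replicate number as a block. Over all 19 alternatives *Robo1* was called in 7, with adjusted p from 0.00516 to 0.0819. The difference was negative in each, from −1.24 to −0.67.

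*Robo2*, a second receptor of the same family, reached at most 0.0285 FPKM with 12 fragments and was at 0 in 3 libraries, all of PPARγ/+ cells. It was not tested, and *Robo1* carried nearly all of the summed FPKM of the Robo members in each library.

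*Slit2* (ENSMUSG00000031558, chr5:47983138-48307733 on the plus strand) encodes a secreted ligand of the Robo receptors. It was at 2.98, 4.39 and 2.94 FPKM in WT_0d, 5.70, 6.04 and 9.60 FPKM in WT_5d, 4.50, 5.12 and 6.11 FPKM in PPARγ/+_0d and 12.8, 12.4 and 13.5 FPKM in PPARγ/+_5d. PPARγ/+ libraries lay above all WT libraries of the same day on 0d and on 5d, and within each cell type the 5d libraries lay above those of 0d. WT_5d replicate 3, low in *L1cam*, *Ncam1* and *Robo1*, was the highest WT library in *Slit2*.

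Over both days *Slit2* was higher in PPARγ/+ cells by 0.75 on the log2 scale (95% confidence interval 0.43 to 1.07, adjusted p = 0.0123), short of a fold change of 2. The adjusted p was at most 0.05 in all 19 alternatives (0.000230 to 0.0369), and the difference ranged from 0.65 to 0.96. The differences on 0d (0.61, adjusted p = 0.113) and on 5d (0.89, adjusted p = 0.0587) did not pass the test by themselves. On 5d it was called without WT_5d replicate 3 (1.12, adjusted p = 0.00298), with a range of adjusted p from 0.000541 to 0.216 over the 19 alternatives. The change from 0d to 5d, as a description, was 1.01 in WT cells (0.78 without WT_5d replicate 3) and 1.29 in PPARγ/+ cells (1.26 without PPARγ/+_5d replicate 3).

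*Slit3* (ENSMUSG00000056427, chr11:35121224-35708507 on the plus strand) encodes another secreted Slit ligand. Its level was 0.561, 0.928 and 0.562 FPKM in WT_0d, 1.19, 2.16 and 3.15 FPKM in WT_5d, 1.09, 1.86 and 2.67 FPKM in PPARγ/+_0d and 2.98, 3.105 and 3.57 FPKM in PPARγ/+_5d. On 0d all PPARγ/+ libraries lay above all WT libraries, and on 5d they overlapped, because WT_5d replicate 3 exceeded the lower PPARγ/+_5d libraries. The values rest on 66 to 435 fragments.

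Over both days *Slit3* differed by 0.96 on the log2 scale (95% confidence interval 0.41 to 1.52, adjusted p = 0.0412), higher in PPARγ/+ cells and short of a fold change of 2. It was called by voom (1.03, adjusted p = 0.0341), and by limma without WT_0d replicate 2 (1.07, adjusted p = 0.0454), WT_5d replicate 3 (1.12, adjusted p = 0.00850) or PPARγ/+_0d replicate 1 (1.12, adjusted p = 0.0223), and its adjusted p was at most 0.05 in 8 of 19 alternatives (0.00761 to 0.0925). On 0d the difference was 1.28 (adjusted p = 0.0611) and was called in 6 of 19 alternatives, with adjusted p from 0.0277 to 0.207. It was called without WT_5d replicate 1 (adjusted p = 0.0277), WT_5d replicate 3 (adjusted p = 0.0289) or PPARγ/+_0d replicate 1 (1.60, adjusted p = 0.0304). The filter of 1 FPKM, the replicate number as a block and the fit without both WT libraries that stood apart also called it. On 5d the difference was 0.64 (adjusted p = 0.423), or 0.95 without WT_5d replicate 3 (adjusted p = 0.108), and passed in none of the 19 alternatives (0.0952 to 0.872). It lay between 0.29 and 0.95 with any 1 library left out. From 0d to 5d *Slit3* rose by 1.47 in WT cells and by 0.83 in PPARγ/+ cells, as a description. The rise was 1.16 in WT cells without WT_5d replicate 3 and 1.68 without WT_0d replicate 2, and 0.75 in PPARγ/+ cells without PPARγ/+_5d replicate 3. With any 1 library left out it lay between 1.16 and 1.82 in WT cells and between 0.51 and 1.11 in PPARγ/+ cells.

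Set against their receptor, the summed FPKM of *Slit2* and *Slit3* was 1.08, 1.46 and 1.56 times that of *Robo1* in WT_0d. It was 2.76, 6.17 and 15.5 times that of *Robo1* in WT_5d, 15.4, 9.69 and 10.3 times in PPARγ/+_0d and 14.0, 10.6 and 10.4 times in PPARγ/+_5d. WT_0d thus had the lowest ratios and did not overlap with any other group, while WT_5d replicate 3 had the highest ratio of all 12 libraries, just above PPARγ/+_0d replicate 1. Since *Robo1* was chosen by its values and its length differs between annotations, this ratio is a description of these libraries.

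*Tenm4* (ENSMUSG00000048078, chr7:96171246-96911093 on the plus strand) encodes a teneurin, a large transmembrane protein that binds latrophilin receptors on other cells. It was the lowest of the 6 tested members, at 0.211, 0.443 and 0.107 FPKM in WT_0d, 0.0672, 0.0715 and 0.0668 FPKM in WT_5d, 0.00780, 0.0164 and 0.0196 FPKM in PPARγ/+_0d and 0.0665, 0.0575 and 0.0230 FPKM in PPARγ/+_5d. The 4 groups did not overlap in FPKM, but the counts behind these values were low, at 52 to 235 fragments in WT_0d, 29 to 36 in WT_5d, 4 to 9 in PPARγ/+_0d and 9 to 29 in PPARγ/+_5d. WT_0d replicate 2, which stood apart in *Myog*, was its highest library.

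As a description, *Tenm4* changed by −0.96 on the log2(FPKM + 0.1) scale from 0d to 5d in WT cells and by 0.37 in PPARγ/+ cells, and the difference between the cell types was −1.51 on 0d, −0.19 on 5d and −0.85 over both days. These sizes depend on the 0.1 added to values this low. By voom on recovered fragments the changes were −1.66 and 1.68 and the differences −3.92, −0.57 and −2.24, and with 1 added in place of 0.1 they were −0.22, 0.05, −0.30, −0.03 and −0.16. With a PPARγ/+_0d library left out the difference on 0d lay between −1.55 and −1.47. With any WT_0d library left out it no longer reached 0.1 FPKM in 3 libraries and had no fitted value. Its exons share 988 bases with *C230038L03Rik* on the other strand.

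**Figure D2:**
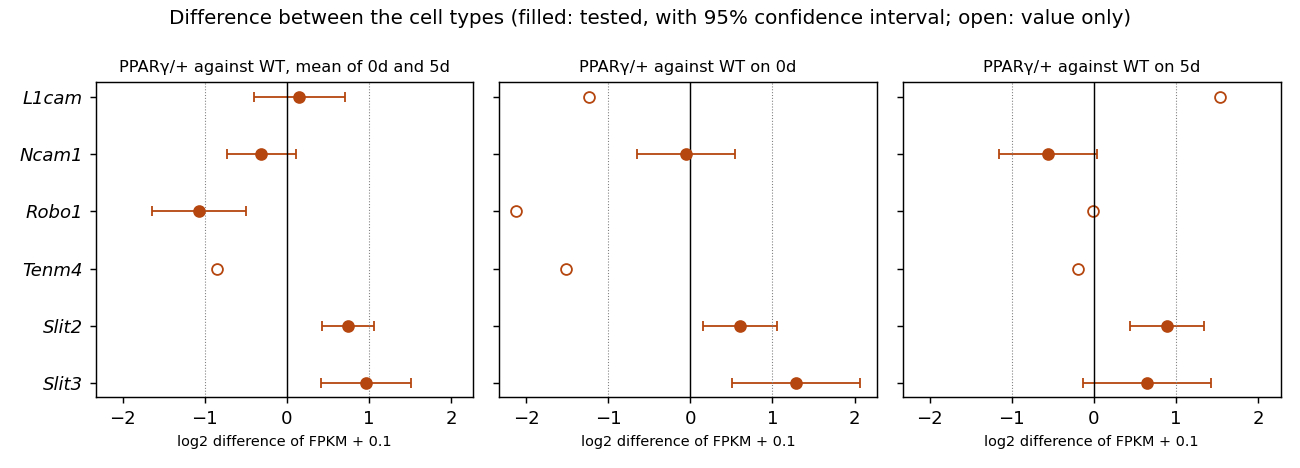
Difference between PPARγ/+ and WT cells in log2(FPKM + 0.1) (x axis) of the 6 tested genes (y axis), as the mean of 0d and 5d, on 0d and on 5d; filled points are tested differences with their 95% confidence interval (12 libraries in the fit), open points are descriptions with no test, and dotted lines mark a fold change of 2. Over both days *Robo1* (−1.07) is below 0 and *Slit2* (0.75) and *Slit3* (0.96) are above it with intervals that do not reach 0.

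The share of all 18023 genes called is given for each comparison. From 0d to 5d 8.94% were called higher and 7.53% lower in WT cells, and 9.11% higher and 6.06% lower in PPARγ/+ cells, while the interaction of cell type and day called 0.760%. The choice of members used these contrasts, so no calls of members are counted in them. With any 1 library left out the changes of *L1cam* in the 2 cell types lay between 2.26 and 3.08 apart. In such fits the change of *Robo1* lay between −1.43 and −0.68 in WT cells and between 0.76 and 1.28 in PPARγ/+ cells, and that of *Slit2* in WT cells between 0.78 and 1.20.

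With all libraries limma called *Robo1* lower in PPARγ/+ cells over both days, and *L1cam*, *Ncam1*, *Slit2* and *Slit3* were not called, against 1.10% of all genes lower and 0.605% higher. On 0d *Ncam1*, *Slit2* and *Slit3*, the members with a test by day, were not called, with 1.39% of all genes called lower and 0.571% higher. On 5d limma and voom called none of these 3 either. Of all genes 0.571% were called higher and 0.533% lower on 5d. No set of members was tested as a whole. Scaling by median ratios took the median log2 change over all genes to 0.02 in both cell types, from −0.08 (WT) and −0.10 (PPARγ/+), and no member's direction turned under it.

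*Ncam1* was the member with the highest FPKM in all 12 libraries. It made up 40.7%, 49.7% and 50.2% of the members' summed FPKM in WT_0d and 81.4%, 79.6% and 60.9% in WT_5d. In PPARγ/+ cells its share was 56.7%, 51.9% and 48.9% on 0d and 54.9%, 55.2% and 49.2% on 5d. The share was thus highest in WT_5d, and replicate 3 was again the library of that group nearest to PPARγ/+ cells. The summed FPKM of the 10 members ranged from 18.7 in PPARγ/+_0d replicate 1 to 67.9 in WT_5d replicate 1. These shares depend on the length each gene was scaled by, 7995 bases for *Ncam1* and 25433 for *Slit2*. In recovered fragments *Slit2* exceeded *Ncam1* in every PPARγ/+ library, as with 6739 against 4503 in PPARγ/+_5d replicate 1. It also did so in WT_5d replicate 3, at 5562 against 4133, and in no other WT library.

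The genes most like *L1cam* and *Robo1* over the 12 libraries were taken among 12399 other tested genes with at least 1 FPKM in a group mean. Closest to *L1cam* were *Fam71f1* (Pearson r = 0.903), *Cadm4*, an adhesion molecule of the immunoglobulin superfamily (r = 0.899), and *Paqr8*, a membrane receptor for progestins (r = 0.872). *Cadm4* stood at 7.67 ± 1.56 FPKM (SD, n = 3) in WT_0d, 2.84 ± 1.53 FPKM in WT_5d, 4.73 ± 1.05 FPKM in PPARγ/+_0d and 6.63 ± 2.25 FPKM in PPARγ/+_5d, where its means fell in WT and rose in PPARγ/+ cells but, unlike for *L1cam*, the PPARγ/+ days overlapped. Closest to *Robo1* were *Daam1*, a formin that assembles actin (r = 0.961), *Loxl2*, an oxidase that crosslinks collagen (r = 0.952), and *Ackr3*, a scavenging receptor of the chemokine Cxcl12 (r = 0.951). *Ackr3* stood at 12.05 ± 4.43 FPKM in WT_0d, 6.27 ± 2.08 FPKM in WT_5d, 2.23 ± 0.549 FPKM in PPARγ/+_0d and 5.98 ± 0.145 FPKM in PPARγ/+_5d. These r describe 12 libraries that fall into 4 groups, and the genes were picked for a high r.

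Since *L1cam* and *Robo1* moved in opposite directions in the 2 cell types, the 250 bases before their starts are shown, from RefSeq on GRCm38.p6. They lie at chrX:73880835-73881084 on the minus strand, before the upstream of 2 listed starts of *L1cam*, and at chr16:72662899-72663148 on the plus strand, before the 1 listed start of *Robo1*. Both windows lie within longer annotated transcripts of the same gene and touch no exon. Capitals mark matches to CANNTG, the E-box letters that myogenic factors such as MyoD bind, searched on both strands.
L1cam: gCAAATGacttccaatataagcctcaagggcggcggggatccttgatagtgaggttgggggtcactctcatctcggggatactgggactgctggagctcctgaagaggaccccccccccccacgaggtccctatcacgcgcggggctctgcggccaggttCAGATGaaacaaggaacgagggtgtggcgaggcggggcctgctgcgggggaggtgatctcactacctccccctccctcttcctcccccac
Robo1: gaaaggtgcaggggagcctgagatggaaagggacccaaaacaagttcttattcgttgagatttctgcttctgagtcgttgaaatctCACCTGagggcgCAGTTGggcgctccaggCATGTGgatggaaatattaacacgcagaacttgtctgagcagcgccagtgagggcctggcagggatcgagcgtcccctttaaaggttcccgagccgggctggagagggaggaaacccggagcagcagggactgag

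The *L1cam* window held 2 such matches and that of *Robo1* 3, and 66.2% of the 32851 RefSeq windows of this length held at least 1. Neither held CAGCTG, found in 13.0% of windows, or AGGTCA, the half-site of nuclear receptors, found on either strand in 14.0%. A pair of AGGTCA with 1 base between, the arrangement that PPARγ binds with its partner RXR, stood in 0.0335% of windows and in neither of these. A match is a description of letters, and no match says only that these letters are not in this window.

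*Slit2* and *Slit3* each host a hairpin of the same microRNA, which is known to act on *Robo1*, and its mature sequence is shown because ligand genes and receptor are thereby tied in background knowledge. The hairpins *Mir218-1* and *Mir218-2* give the same mature miR-218-5p, at chr5:48223966-48223986 and chr11:35616840-35616860, both on the plus strand like their hosts (RefSeq on GRCm38.p6, seed from base 2 to base 8 in capitals).
mmu-miR-218-5p: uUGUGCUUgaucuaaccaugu

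Both hairpin genes were listed at 0 FPKM in every library. Libraries made for mRNA are not a measure of mature microRNA, so its level was not measured here.

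Around the members, 6 lists show which other guidance genes changed. Their counts from 0d to 5d are to be read beside the shares of all 18023 genes called by the same rule. These were 8.94% higher and 7.53% lower in WT cells, and 9.11% higher and 6.06% lower in PPARγ/+ cells. The medians of all genes were −0.08 (WT) and −0.10 (PPARγ/+), and no list was tested as a whole. Of 20 adhesion partners of the L1 type 9 were tested, and from 0d to 5d 2 fell in WT cells, while 1 rose and 1 fell in PPARγ/+ cells. *Alcam*, an adhesion molecule of the immunoglobulin superfamily, fell in both, from 5.86 ± 2.05 to 1.39 ± 0.516 FPKM (SD, n = 3) in WT cells and from 4.05 ± 0.748 to 1.28 ± 0.0720 FPKM in PPARγ/+ cells (adjusted p = 0.00473 and adjusted p = 0.000246). *Ezr*, which links membrane proteins to actin, fell in WT cells (−1.18, adjusted p = 0.000386). The median log2 change was −0.04 (WT) and 0.23 (PPARγ/+).

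Of 18 relatives and effectors of Slit and Robo 15 were tested, and 2 rose and none fell in each cell type (medians 0.23 and 0.00). *Cxcl12*, a chemokine, rose from 27.3 ± 6.26 to 121 ± 61.2 FPKM in WT cells (adjusted p = 0.00959) and from 47.0 ± 10.5 to 134 ± 3.71 FPKM in PPARγ/+ cells (adjusted p = 0.000399). *Enah*, an actin regulator, rose in WT cells (1.11, adjusted p = 0.00459) but fell short of 2-fold without WT_5d replicate 1 (0.98), and *Sdc1*, a heparan sulfate proteoglycan, rose in PPARγ/+ cells (1.06, adjusted p = 3.00e-05).

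Of 10 teneurins and partners 7 were tested, and 2 rose in WT cells and 1 in PPARγ/+ cells (medians 0.73 and 0.53). *Adgrl3*, a latrophilin that binds teneurins, rose from 0.936 ± 0.112 to 1.97 ± 0.223 FPKM in WT cells (adjusted p = 0.00488), short of 2-fold without replicate 1 of WT_0d (0.91) or of WT_5d (0.92); a gene under 0.5 FPKM lost its call in WT cells without the latter (0.93). With all libraries limma called no gene of these 3 lists in the interaction or between the cell types. Without WT_5d replicate 3 it called 1 Slit and Robo relative and 1 teneurin gene in the interaction, and without both WT libraries that stood apart 2 and 1. At an unadjusted p of at most 0.05 the interaction had 2, 3 and 1 of their genes, in the order given here, the comparison over both days 4, 5 and 1, that on 0d 2, 4 and 1, and that on 5d 4, 4 and 0. Of all genes 12.01% had such a p in the interaction, 24.96% over both days, 21.26% on 0d and 15.35% on 5d. In these 4 comparisons voom called 1 adhesion partner lower on 0d and no other gene of the 3 lists.

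Of 17 netrins and receptors 16 were found in the table and 10 tested, and 4 rose and none fell in each cell type (medians 0.80 and 0.88). *Ntn4* rose from 4.47 ± 1.16 to 15.8 ± 2.79 FPKM in WT cells (adjusted p = 0.00146) and from 4.36 ± 0.195 to 14.6 ± 0.728 FPKM in PPARγ/+ cells (adjusted p = 1.61e-05). *Rgma*, a repulsive ligand of neogenin, rose in both (1.72 and 1.41), *Ntn5* in WT cells (3.11, adjusted p = 0.0219; 2.41, 1.61 and 0.198 FPKM in WT_5d) and *Ntn1*, a secreted netrin, in PPARγ/+ cells (1.32, adjusted p = 0.000421). On 0d *Ntn1* stood at 3.75 ± 0.791 FPKM in PPARγ/+ against 8.13 ± 1.81 FPKM in WT cells (−1.09, adjusted p = 0.00482), short of 2-fold without WT_0d replicate 2 (−0.92, adjusted p = 0.0161, range over the alternatives 0.00228 to 0.0258). With all libraries neither limma nor voom called a netrin gene in the interaction, over both days or on 5d, where 2, 3 and 2 had an unadjusted p of at most 0.05. Without WT_5d replicate 3, and without both WT libraries, limma called 1 in each of these, lower in PPARγ/+ cells or with a lower change there.

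Of 31 semaphorins, plexins and neuropilins 29 were tested, and 5 rose and 2 fell in WT cells while 8 rose and none fell in PPARγ/+ cells (medians 0.18 and 0.42). In WT cells the receptor *Plxnb3* (2.10, adjusted p = 0.00660) and the secreted *Sema3f* (1.44, adjusted p = 0.00745) and *Sema3d* (1.39, adjusted p = 0.0429) rose most, and *Sema4f* (−1.64, adjusted p = 0.0457) and *Sema6b* (−1.15, adjusted p = 0.00911) fell. *Sema3d* without WT_0d replicate 1 (1.17) or 3 (1.24) and *Sema4f* without WT_0d replicate 1 (−1.59) lost this call by an unadjusted p above 0.05 and not by their size, and a plexin lost it without WT_0d replicate 3 by its size (0.98). With a pseudocount of 1 *Plxnb3* (0.58), *Sema3d* (0.87), *Sema4f* (−0.62) and *Sema6b* (−0.48) fell short of 2-fold in WT cells. In PPARγ/+ cells *Sema6a* (2.70, adjusted p = 0.000168), *Sema3d* (2.10, adjusted p = 0.000401) and *Sema3c* (1.80, adjusted p = 0.000158) rose most.

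Over both days *Sema6a* (−1.46, adjusted p = 0.0251) and *Sema3d* (−1.06, adjusted p = 0.0281) were lower in PPARγ/+ cells, kept in 11 and 9 of 19 alternatives with adjusted p up to 0.0660 and 0.0676. Both lost the call without WT_0d replicate 2, WT_5d replicate 1 or 2, PPARγ/+_0d replicate 2 or any PPARγ/+_5d library (*Sema6a* from −1.50 to −1.28, *Sema3d* from −1.08 to −0.88), and *Sema3d* without PPARγ/+_0d replicate 1 (−0.96). On 0d *Sema6a* (−2.16, adjusted p = 0.0237) and *Sema3d* (−1.41, adjusted p = 0.0419) were lower and *Sema3f* was higher (1.09, adjusted p = 0.0224), kept in 13, 6 and 13 of 19 alternatives with adjusted p up to 0.0965, 0.144 and 0.0930. Without WT_0d replicate 2 these 3 calls were lost (−1.81, −1.05 and 1.09, adjusted p = 0.0861, adjusted p = 0.124 and adjusted p = 0.0658). The interaction called *Plxnd1*, a semaphorin receptor (0.86, adjusted p = 0.0385), in 7 of 19 alternatives (0.0178 to 0.117), and not without any library of WT_0d, PPARγ/+_0d or PPARγ/+_5d, where it lay between 0.81 and 0.90. On 5d limma and voom called 0 of the list, and 10 had an unadjusted p of at most 0.05. Without WT_5d replicate 3 limma called 2 lower on 5d, and without both WT libraries 3.

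Of 22 ephrins and Eph receptors 16 were tested, and 2 rose in WT cells while 2 rose and 1 fell in PPARγ/+ cells (medians 0.07 and 0.12). *Ephb6*, an Eph receptor without kinase activity, rose in both (1.62 and 1.29), and *Ephb3* in WT cells (1.03, adjusted p = 0.000707; 0.97 without WT_0d replicate 1 or WT_5d replicate 2). *Epha2* fell from 39.1 ± 1.33 to 19.6 ± 1.62 FPKM in WT cells, just short of 2-fold on the fitted scale, and from 35.6 ± 10.2 to 16.3 ± 0.828 FPKM in PPARγ/+ cells, where it was called (−1.09, adjusted p = 0.00293) but not under median-ratio scaling (−0.96) or without PPARγ/+_0d replicate 1 (−0.87). In WT cells 1 gene of the list was called lower by voom, and by limma without WT_5d replicate 3 and without both WT libraries. *Epha1*, a receptor of ephrins, went from 3.65 ± 0.217 to 5.78 ± 0.552 FPKM in WT cells and from 1.11 ± 0.0821 to 4.83 ± 0.451 FPKM in PPARγ/+ cells. Its changes differed between the cell types by 1.37 (adjusted p = 0.00673), called in all 19 alternatives (0.00348 to 0.0326), and on 0d it was lower in PPARγ/+ cells (−1.63, adjusted p = 4.26e-05), also in all 19. A further gene, under 0.5 FPKM, was called lower in PPARγ/+ cells over both days and on 0d, kept in 7 and 9 of 18 alternatives with adjusted p up to 0.0848 and 0.121. On 5d limma called 0 of the list, 2 had an unadjusted p of at most 0.05, and voom called 1 lower. Limma also called 1 lower under median-ratio scaling, without WT_5d replicate 3 and without both WT libraries.

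Markers of adipocytes moved with the cell type. The 5 markers summed to at most 0.0794 FPKM in each WT library, to 4.73, 2.79 and 4.09 FPKM in PPARγ/+_0d and to 13.1, 19.7 and 65.9 FPKM in PPARγ/+_5d, with *Lep* listed at 0 in all libraries. *Adipoq* was the most abundant by its mean over the 12 libraries. In PPARγ/+_0d replicates 2 and 3 it was at 1.055 and 1.957 FPKM, below *Fabp4* at 1.589 and 2.0 FPKM. The 4 myoblast markers summed to 197, 263 and 149 FPKM in WT_0d, 664, 584 and 182 FPKM in WT_5d, 62.1, 64.4 and 87.1 FPKM in PPARγ/+_0d and 254, 282 and 298 FPKM in PPARγ/+_5d, with *Des* as the most abundant gene. *Myf5*, of the same list, was not like the sum, at 11.3, 13.2 and 11.6 FPKM in WT_0d, 5.96, 3.53 and 3.79 FPKM in WT_5d, 3.66, 4.25 and 3.96 FPKM in PPARγ/+_0d and 5.58, 6.27 and 8.47 FPKM in PPARγ/+_5d. It was lower on 5d in WT cells and higher on 5d in PPARγ/+ cells, crossed as in *L1cam*, and WT_5d replicate 3 was not its lowest library. The 4 fibroblast markers summed to 81.4, 93.7 and 87.4 FPKM in WT_0d, 464, 498 and 268 FPKM in WT_5d, 19.4, 34.5 and 38.6 FPKM in PPARγ/+_0d and 503.5, 548 and 607 FPKM in PPARγ/+_5d. *Dcn* was the most abundant gene by its mean over the 12 libraries, and *Thy1* was below 0.1 FPKM in all libraries. On 0d *Col1a1* exceeded *Dcn* in every library, at 65.24, 52.69 and 76.05 FPKM in WT_0d and 10.24, 24.14 and 22.99 FPKM in PPARγ/+_0d. The sum of the fibroblast markers was higher on 5d in both cell types and on 0d lower in PPARγ/+ cells. *Pdgfra*, of the same list, was on 0d higher in PPARγ/+ cells, at 5.35, 5.26 and 6.20 FPKM against 3.85, 4.28 and 3.69 FPKM in WT_0d, as were *Slit2* and *Slit3*. On 5d it was at 7.04, 10.3 and 13.2 FPKM in WT cells, highest in replicate 3 like these genes, and at 12.7, 11.8 and 12.7 FPKM in PPARγ/+ cells. The part of these lists in the changes of the members from 0d to 5d or in their differences between the cell types was not tested.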

How the data were processed

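The authors used Trim Galore for trimming, STAR for alignment against GRCm38 and HTSeq with Ensembl 83 genes for counting, and the FPKM they made from the counts is deposited per library and was used here. The deposited log2 values, which the authors made from the same FPKM with 1 added, were compared with it and not used further. The labels list mm9, but exonic lengths of GRCm38 gave whole fragments for 21030 of the 27138 genes above 0. A number counted as whole within 0.0001 of a fragment in every library. Where at least 4 libraries were above 0, steps between values gave a length for another 5359, and 749 gave no whole fragments.

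Fits used R 4.3.3 with limma 3.58.1, whose variances were moderated along a trend with level, with p-values adjusted by Benjamini-Hochberg over all tested genes. Changes from 0d to 5d were fitted on the 6 libraries of a cell type, all else on 12. Python 3.11.15, numpy 2.4.6, pandas 2.3.3 and matplotlib 3.10.9 handled and drew tables. No pairing was used.

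Members and lists were chosen with earlier results of these data known. Of each list and comparison, the called genes with the largest changes are named, up to 3 in each direction, where the higher group mean is at least 0.5 FPKM. *Ntn3* was not matched in the table.

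Alternatives were a pseudocount of 1, no filter, a filter of 1 FPKM, median-ratio scaling, the replicate number as a block, voom on recovered fragments, each library left out, and, for changes from 0d to 5d, 12 libraries in the fit or adjusted p-values. Leaving out WT_0d replicate 2 and WT_5d replicate 3 together was added after the data were seen.

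Markers of immune cells (3, *Cd68* most abundant, with *Ptprc* and *Csf1r* below 0.1 FPKM) summed to between 2.07 and 5.13 FPKM, of endothelial cells (3, *Kdr*) to at most 0.115 FPKM and of pluripotent cells (2, *Nanog*, with *Pou5f1* at 0) to at most 0.402 FPKM. The gene named first for each list is the most abundant by its mean over the 12 libraries. The part of these lists in the differences was not tested.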

Additional observations from a re-analysis of the deposited data

Results flagged for a closer look

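From 0d to 5d *L1cam* fell in WT cells and rose in PPARγ/+ cells, and the log2 changes differed by 2.77. For *Robo1* they differed by 2.10. The choice of members used the changes of both genes, so these values are a description with no test. For *Tenm4* the log2 changes differed by 1.32, which was not tested, at counts down to 4 fragments. For *Plxnd1* the difference was 0.86 and for *Epha1* 1.37, where the change in PPARγ/+ cells was a called rise and that in WT cells was a smaller one, short of 2-fold.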

How the results depend on the processing

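The groups hold 3 libraries each of 1 cell line, and counts of calls depend on single libraries, WT_5d replicate 3 among them. From 0d to 5d 2970 genes were called in WT cells, 1441 with a pseudocount of 1 and 2770 to 3043 with a library left out. In PPARγ/+ cells it was 2735 genes, 1241 with a pseudocount of 1, 1806 with a filter of 1 FPKM and 2543 to 2828 with a library left out. With a pseudocount of 1 the rises of *Enah* (0.92), *Adgrl3* (0.62) and *Ephb3* (0.95) in WT cells fell short of 2-fold. So did the difference of *Ntn1* on 0d (−0.94).

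The interaction called 137 genes, 91 by voom and 463 without both WT libraries that stood apart. With a library left out this ran from 41 (without PPARγ/+_5d replicate 3) to 492 (without WT_5d replicate 3).

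Over both days 308 genes were called, 85 with a pseudocount of 1, 189 with a filter of 1 FPKM, 570 without both WT libraries, and 215 (without WT_5d replicate 2) to 581 (without WT_5d replicate 3) with a library left out. On 0d it was 353 genes, 120 with a pseudocount of 1, and 178 (without PPARγ/+_0d replicate 2) to 490 (without WT_5d replicate 3). On 5d it was 199 genes, 95 with a pseudocount of 1, 93 with a filter of 1 FPKM, 788 without both WT libraries, and 67 (without PPARγ/+_5d replicate 3) to 763 (without WT_5d replicate 3).

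Calls of members are counted only between the cell types, because the choice of members used the other contrasts. The values of *L1cam* and *Robo1* by day are not free of this choice either. Over both days 1 was called, against 1.10% of all genes lower and 0.605% higher. It was 0 with a pseudocount of 1 or no filter, 3 by voom, 2 without both WT libraries and 0 to 2 with a library left out. On 0d it was 2, *Robo1* and *Tenm4*, whose values by day are a description, against 1.39% of all genes lower and 0.571% higher. This was 1 with a pseudocount of 1 and 1 to 4 with a library left out. On 5d it was 0, against 0.533% of all genes lower and 0.571% higher. This was 1 with a pseudocount of 1 or by voom, 2 without both WT libraries and 0 to 2 with a library left out. These counts include members whose values are a description, so they support nothing.

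Signs turned for *L1cam* over both days, at −0.10 without WT_5d replicate 3 and −0.11 without both WT libraries (−0.10 to 0.31 with a library left out), for *Ncam1* on 0d, at 0.13 without WT_0d replicate 2 or both WT libraries (−0.20 to 0.13), and for *Robo1* on 5d, at 0.38 without WT_5d replicate 1 and 0.13 without PPARγ/+_5d replicate 1 (−0.37 to 0.38). *Tenm4* has no value where it did not pass the filter.

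With the replicate number as a replicate block, the interaction called 61 genes. Over both days 0 members were called, *Robo1* at an adjusted p of 0.0595, while on 0d the block added a call of *Slit3*. Libraries with the same number did not deviate together (r −0.0678 to 0.0834 in 18 pairs, against −0.122 to 0.103 in 36 others), and 2 of 12 correlated best with their own number. No pairing by number was thus seen, which does not show that there is none.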
